A study of Mus musculus with 30 samples.

Results

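The genes described here make cholesterol, sense its level and move it within the cell. They were given as a list of 29 genes. Of these, 26 were measured among 18784 genes with 1 named symbol. Where a gene had several probe sets, the one with the highest average signal across all 30 arrays stood for it. The other 3, Acat2, Hmgcs1 and Idi1, had no probe set named in the platform table and were not analysed here. RNA came from preputial glands, paired modified sebaceous glands of the male mouse, which the labels call preputial gland duct. All mice were males of strain B6, and all were assigned to a diet containing benzo[a]pyrene (BaP), a carcinogenic combustion product, begun at 6 weeks of age at about 12.5 mg/kg/day. They were of 3 genotypes: wild type, called WT here, mice without Cyp1a1 (KO), and mice without both Cyp1a1 and Cyp1b1 (DKO). Both genes encode cytochrome P450 enzymes that metabolise BaP. Glands were taken at weeks 0, 4, 8, 12 and 16 of the diet, 2 mice per genotype and week. The labels do not say how the deletions were made or in which cells. Week 0 mice had not yet eaten BaP, and no mice kept without BaP to a later age were analysed here, so age and BaP cannot be told apart within a genotype.

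Cholesterol is built from acetyl-CoA through mevalonate, isoprenoid phosphates, squalene and lanosterol. When membrane sterol is low, SCAP escorts SREBP2 to the Golgi, where it is cut to release a transcription factor that switches on nearly every enzyme of the path. When sterol is high, INSIG proteins hold SCAP and SREBP in the endoplasmic reticulum. Sebaceous cells make large amounts of lipid, and in many mammals they secrete sterols and their precursors with the sebum.

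Promoter sequence is shown for 4 genes on which the results below turn: Mvk and Lss, which were lower in both knockout genotypes, Insig1, which differed most between DKO and WT, and Tmem97, which fell during BaP feeding in DKO. SREBP2 usually acts beside the factors NF-Y and Sp1. Capitals mark the NF-Y box CCAAT and the Sp1 box GGGCGG on either strand (as ATTGG and CCGCCC on the other). Each sequence is from RefSeq (GRCm38.p6) and runs 5′ to 3′ on the gene's strand, from 250 bases before the transcription start to 50 after it.
Mvk, chr5:114444019-114444318, plus strand: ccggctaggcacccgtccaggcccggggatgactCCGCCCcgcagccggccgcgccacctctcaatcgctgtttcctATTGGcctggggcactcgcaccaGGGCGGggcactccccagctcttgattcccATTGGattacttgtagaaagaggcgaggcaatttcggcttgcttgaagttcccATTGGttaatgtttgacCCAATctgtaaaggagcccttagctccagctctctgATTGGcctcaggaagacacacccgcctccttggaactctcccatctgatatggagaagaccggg
Lss, chr10:76531355-76531654, plus strand: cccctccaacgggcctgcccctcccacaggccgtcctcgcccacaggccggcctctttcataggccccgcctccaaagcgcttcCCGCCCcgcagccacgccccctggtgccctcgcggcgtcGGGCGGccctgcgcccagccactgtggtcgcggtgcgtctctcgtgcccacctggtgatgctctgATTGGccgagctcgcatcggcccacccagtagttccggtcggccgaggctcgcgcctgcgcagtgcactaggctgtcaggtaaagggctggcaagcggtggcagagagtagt
Insig1, chr5:28071162-28071461, plus strand: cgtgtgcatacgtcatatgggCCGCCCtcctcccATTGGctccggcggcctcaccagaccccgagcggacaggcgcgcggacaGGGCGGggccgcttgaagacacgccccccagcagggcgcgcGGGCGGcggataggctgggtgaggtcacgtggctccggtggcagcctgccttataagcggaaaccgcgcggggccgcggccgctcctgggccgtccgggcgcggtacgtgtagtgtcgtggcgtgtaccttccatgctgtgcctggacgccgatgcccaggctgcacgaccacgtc
Tmem97, chr11:78550686-78550985, minus strand: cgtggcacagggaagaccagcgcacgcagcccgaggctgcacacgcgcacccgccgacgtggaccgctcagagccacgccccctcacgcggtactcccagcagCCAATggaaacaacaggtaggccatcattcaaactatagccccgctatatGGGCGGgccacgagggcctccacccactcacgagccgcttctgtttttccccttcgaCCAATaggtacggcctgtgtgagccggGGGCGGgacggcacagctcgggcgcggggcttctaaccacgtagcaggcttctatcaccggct
The Mvk window held 5 NF-Y boxes and the Tmem97 window held 2. RefSeq windows were matched for 21 of the 26 measured genes. Among these 21, Mvk held the most NF-Y boxes. At least 1 NF-Y box stood in 20 of these 21 (95.24%), against 42.1% of 15059 measured genes with a window; Scap was the exception. The Sp1 box stood in 19 of 21 (90.48%), against 53.29%, and was missing from the Ggps1 and Pmvk windows. A sterol regulatory element spelled TCACNCCAC was in 0 of 21 windows and in 1.38% of those of measured genes. These matches describe letters in a window and do not show binding. Only the spellings given were searched, so the absence of one does not show that a window lacks an SREBP2 site.

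Values are RMA log2 intensities as deposited, and a difference of 1 is a 2-fold change. The arrays differed in how widely their values spread. In 21 arrays the standard deviation (SD) of all log2 values was 1.70 to 2.08, and in 9 it was 1.15 to 1.42. These 9 low-range arrays were 8 of the 10 labelled DKO and replicate 2 of KO week 12. The array numbers in the labels split in nearly the same way: all WT arrays and 9 KO arrays lay within numbers 1 to 20, and 9 DKO arrays within 22 to 33. Only KO week 12 and DKO week 0 held arrays of both number ranges. Array range, number range and the DKO genotype therefore cannot be told apart over most of the design. Array numbers also parted KO from WT: WT arrays were 1 to 10, and KO arrays 11 to 19 and 30. Array order and genotype therefore cannot be told apart between KO and WT either. Signal for Cyp1b1, one of the genes deleted in DKO, went against the labels: it was 6.17 to 6.77 in WT and 9.48 to 10.57 in the arrays labelled DKO on BaP. Cyp1b1 signal was 7.48 and 8.74 in the arrays labelled DKO at week 0. In KO it was 6.66 and 6.69 at week 0 and 7.71 to 8.82 on BaP. The sources used here do not say where its probes lie relative to the deletion. Cyp1a1 signal did not bear out the labels either. On BaP it was 4.26 to 4.69 in WT, 3.76 to 4.80 in KO and 3.98 to 6.14 in DKO. At week 0 it was 4.35 and 4.74 in WT, 3.67 and 3.83 in KO, and 3.96 and 5.33 in DKO. Its highest value thus came from an array labelled as lacking the gene. The medians of all values of an array were 5.12 to 5.47. Below, WT, KO and DKO stand for the arrays labelled so, and every direction drawn for DKO rests on those labels.

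Signal of the sterol genes in the WT gland ran from near the middle to near the top of all genes. Over the 10 WT arrays, Msmo1, a C4-methylsterol oxidase, had a mean log2 level of 11.07, at the 99.5th percentile of all genes. Cyp51, the lanosterol demethylase, stood at 10.40, and Nsdhl, which helps remove the C4 methyl groups, at 10.30. Next came Fdps, which makes farnesyl diphosphate (10.12), and Insig1, the SCAP-retention protein (10.10). At the low end were Tm7sf2, a sterol reductase (6.70), and Stard4, a soluble sterol carrier (5.73, the 58.0th percentile). Log2 intensities of different probe sets are not on one scale per molecule, so this order describes signal only.

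Before any BaP, the list's rank was highest in the WT arrays, though each genotype had 2 arrays and rank was not tested. The median percentile of the 26 genes was 91.2 and 92.4 in the 2 WT week 0 arrays, 86.8 and 89.8 in KO, and 86.8 and 81.1 in DKO. The DKO array at 81.1 was low-range. During BaP feeding it ranged from 91.3 to 93.3 over 8 WT arrays, from 78.7 to 92.2 over 8 KO arrays, and from 68.2 to 83.5 over 8 DKO arrays. The WT and DKO ranges did not overlap, while KO spanned both. The lowest KO value was the low-range array. Ranks within an array do not depend on its spread, although noise in a low-range array can still lower the rank of strong genes, which was not tested.

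**Figure D1:**
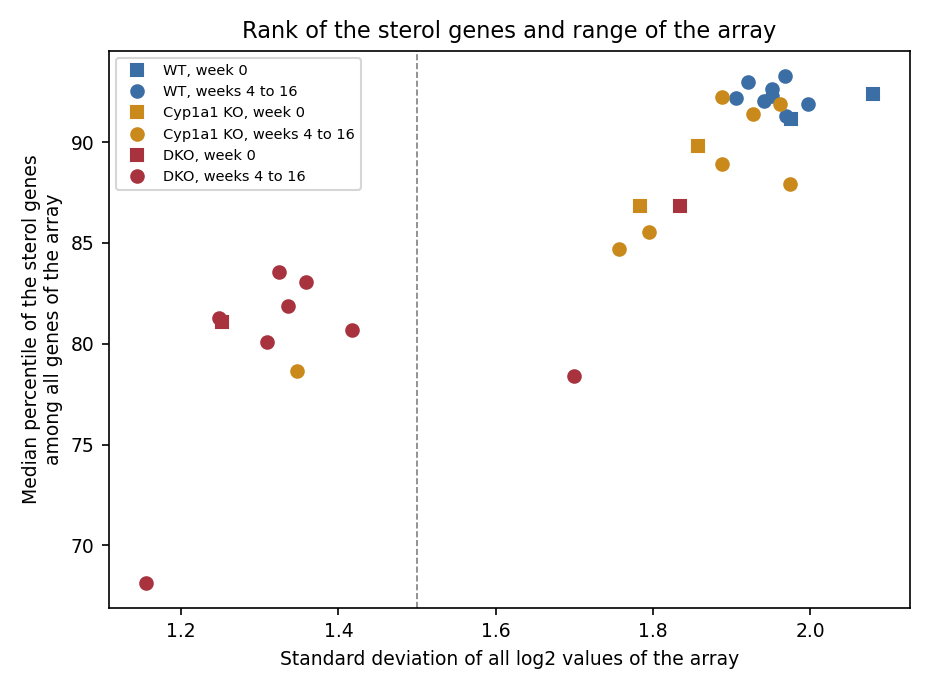
Each point is 1 array; x is the SD of all log2 values of the array, y the median percentile of the 26 sterol genes among all genes of that array, colour the genotype and shape the stage. Low-range arrays lie left of the dashed line at 1.5; the DKO array from week 12 that lies right of it has a median percentile of 78.4, and the WT arrays lie between 91.2 and 93.3.

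Cyp1a1 KO glands had lower levels of 5 sterol synthesis genes than WT during BaP feeding. In the limma fit, with Benjamini-Hochberg adjustment over all genes and a call at adjusted p under 0.05, 5 of 26 genes were lower and none higher, where 1.39% of all genes were called lower. All 3 measured mevalonate-step genes were among them, with the isoprenoid and squalene genes Fdps and Lss. The median difference over the 26 genes was -0.53, against 0.08 over all genes. Fold differences of the 5 were between 1.89 and 2.50. Counts at an unadjusted p under 0.05 are given below without the share of all genes that met it. They are therefore not read as results.

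Mvk encodes mevalonate kinase. Over 8 arrays of weeks 4 to 16 its log2 level ran from 7.95 through a median of 8.74 to 9.17 in WT, and from 5.90 through 7.54 to 8.15 in KO. The highest KO array, at 8.15, was the 1 KO array above the lowest WT array, and the difference was -1.32 ± 0.22 (SE; limma adjusted p = 0.00278). Mvd, the mevalonate diphosphate decarboxylase, ran from 6.92 through 7.20 to 7.70 in WT and from 5.64 through 6.14 to 6.89 in KO. Its groups did not overlap (-0.99 ± 0.19, limma adjusted p = 0.00719). Pmvk, which adds the phosphate between these steps, ran from 6.81 through 7.26 to 8.62 in WT and from 5.71 through 6.38 to 7.01 in KO, with overlap (-0.92 ± 0.22, limma adjusted p = 0.0393).

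Fdps joins isoprenoid units into farnesyl diphosphate. It ran from 9.75 through 10.05 to 10.37 in WT and from 8.29 through 9.18 to 9.70 in KO, again without overlap (-0.98 ± 0.24, limma adjusted p = 0.0429). Mvd and Fdps were the 2 of 26 genes with every KO array below every WT array, an arrangement found in 1.43% of all genes. Lss, the enzyme that closes squalene epoxide into lanosterol, ran from 8.71 through 8.97 to 9.14 in WT and from 6.00 through 7.86 to 9.06 in KO (-1.08 ± 0.24, limma adjusted p = 0.0261). Its KO values overlapped WT because both week 8 arrays, at 9.06 and 8.96, were as high as WT.

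Of the genes after lanosterol, 0 of 9 were called in KO by limma, with 4 at an unadjusted p under 0.05. Of these 9, Msmo1 differed by 0.06 (95% interval -0.42 to 0.54) and Cyp51 by -0.12 (-0.78 to 0.54), while Hsd17b7, a ketosteroid reductase, differed by -0.85 (-1.59 to -0.11) without being called. Ggps1, which makes geranylgeranyl diphosphate for protein prenylation rather than for sterols, differed by 0.30 (-0.27 to 0.87). Among the sensing genes, Insig1 differed by -1.36 ± 0.36 (limma adjusted p = 0.0610) and Scap by -0.89 ± 0.24 (limma adjusted p = 0.0666). Neither was called. Srebf2, which encodes SREBP2 itself, differed by -0.30 (-0.67 to 0.08).

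The KO calls depended on which arrays shared the fit. Without the 9 low-range arrays, which is here also the fit within numbers 1 to 20, 13 genes were lower and 1, Ggps1, was higher (0.42, limma adjusted p = 0.0271). In that fit 6.72% of all genes were lower, the median over the 26 genes was -0.39, and Insig1 (-1.01, limma adjusted p = 0.001) and Scap (-0.63, limma adjusted p = 0.000808) were called. The late genes Hsd17b7 (-0.50), Ebp (-0.53) and Dhcr7 (-0.41) were also called lower there, with limma adjusted p of 0.0311, 0.0417 and 0.0121. They were called with array weights as well, where 12 of 26 genes and 6.18% of all genes were lower. No test set the early steps against the late ones, and none of these fits set array order apart from genotype. Quantile normalization left 1 call, Mvk, and leaving out single arrays gave 2 to 11 calls, the 11 without KO week 12 replicate 1, the normal-range array of that pair, where 5.82% of all genes were lower. Without any 1 of the other 15 WT and KO arrays on BaP the count was 2 or 3. Mvk was called in all 41 alternative settings and Mvd in 40. Lss was called in 27 of them, Pmvk in 25 and Fdps in 19.

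Several of these genes had lower values in KO before BaP, without calls. Mvk was 8.37 and 8.998 in the WT week 0 arrays and 7.26 and 7.44 in KO. Pmvk was 7.40 and 8.83 against 6.71 and 6.46. Lss was 8.99 and 9.18 against 7.11 and 8.10. The KO arrays lay below the WT arrays in each of these, with differences of -1.34, -1.53 and -1.48. At week 0 limma called 0 of 26 genes between KO and WT, and 0% of all genes. The median was -0.75, and 7 of the 26 had an unadjusted p under 0.05. That count has no share of all genes beside it and is not read as a result. The change of KO during BaP minus that of WT, a comparison added after the values were seen, was likewise called for 0 of 26 genes and 0% of all genes, with 0 at an unadjusted p under 0.05 and a median of 0.07.

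**Figure D2:**
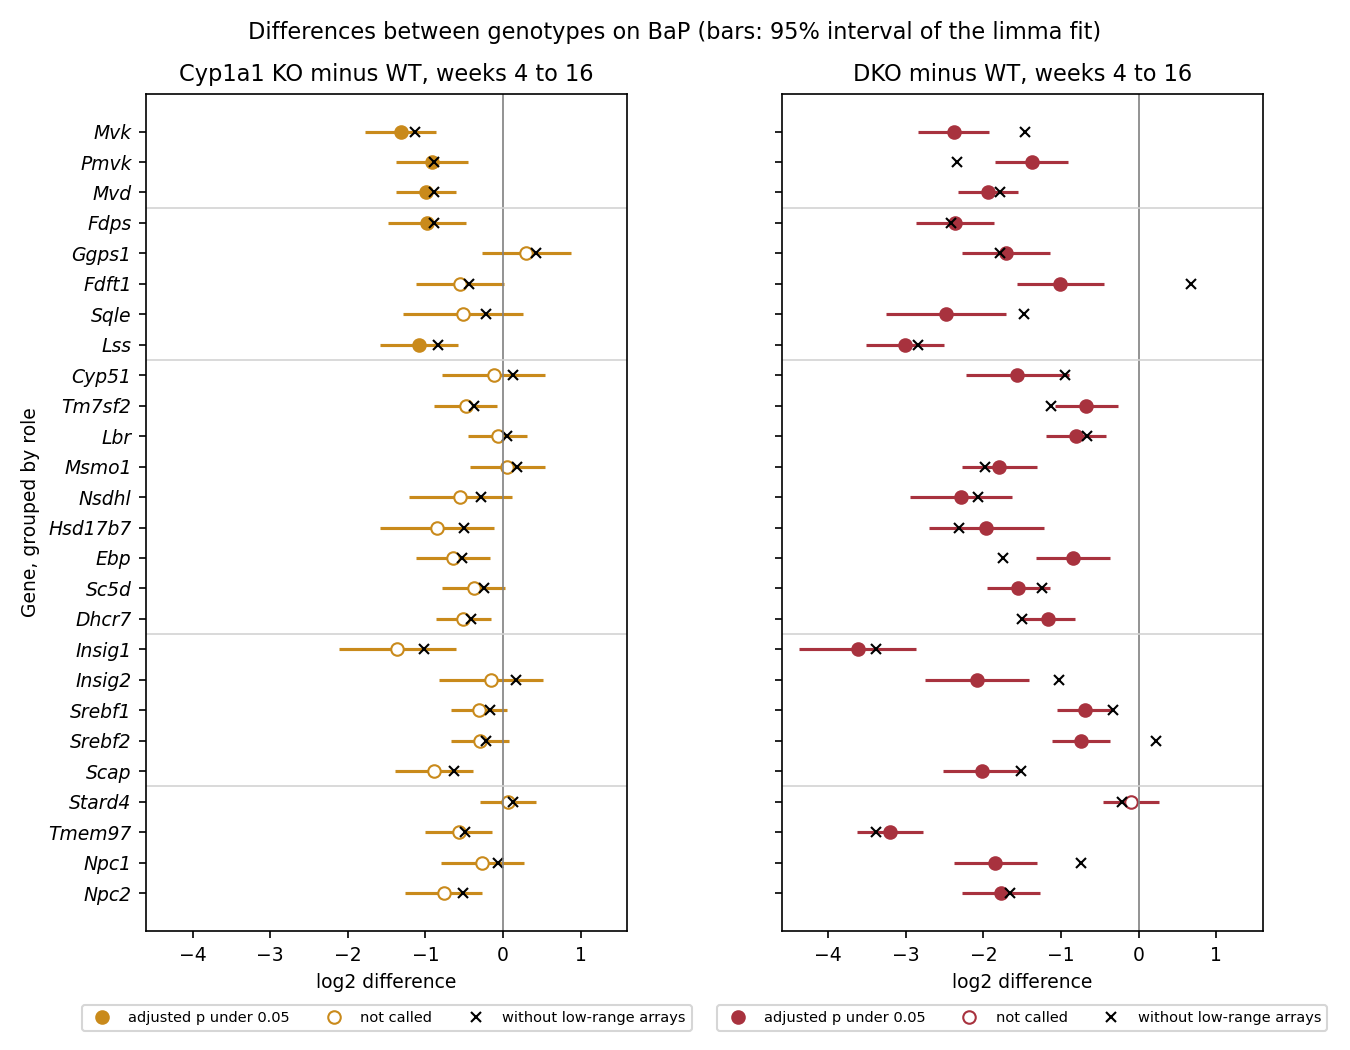
For each gene, the log2 difference of weeks 4 to 16 of BaP with its 95% interval from the limma fit, KO minus WT on the left and DKO minus WT on the right; filled points have an adjusted p under 0.05, and crosses give the value without low-range arrays. The 5 filled KO points lie in the 2 upper role groups, and in DKO every point but Stard4 is filled, with Fdft1 and Srebf2 crosses to the right of 0.

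DKO glands had lower values than WT across the whole path during BaP feeding. Of 26 genes, 25 were lower and none higher, where 30% of all genes were called lower; the median was -1.78 against 0.19 over all genes. Stard4 was not called (-0.10, 95% interval -0.46 to 0.26). In 20 of 26 genes every DKO array lay below every WT array, against 13.1% of all genes. With array number range as a block, 1 call was left, Tmem97, and the median was -0.23, so the other 24 differences cannot be told apart from the number range. In that fit 0.351% of all genes were lower.

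Insig1, a target and brake of SREBP2, had the largest difference. It ran from 9.70 through 10.07 to 10.38 in WT and from 4.78 through 6.90 to 7.85 in DKO, a difference of -3.62 ± 0.36 (limma adjusted p = 1.31e-07). It was -1.85 with the number block (limma adjusted p = 0.210). Tmem97, also called the sigma-2 receptor, binds the lysosomal cholesterol transporter NPC1. It ran from 8.64 through 9.10 to 9.70 in WT and from 4.96 through 6.04 to 7.23 in DKO (-3.20 ± 0.21, limma adjusted p = 3.92e-10). With the number block Tmem97 was -2.65 (limma adjusted p = 0.00284).

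Lss ran from 5.47 through 5.89 to 6.58 in DKO, below all WT arrays (-3.01 ± 0.24, limma adjusted p = 1.24e-08). Sqle, which epoxidises squalene, ran from 9.24 through 9.37 to 9.63 in WT and from 5.68 through 6.94 to 7.96 in DKO (-2.48 ± 0.37, limma adjusted p = 1.05e-05). With the number block Lss was -1.62 and Sqle turned to 0.20, and neither was called. The mevalonate genes Mvk, Mvd and Pmvk differed by -2.38, -1.94 and -1.38, and with the number block by -1.23, -1.06 and -0.62.

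Sterol-processing enzymes were lower in all 9 measured genes, by between 0.67 for Tm7sf2 and 2.29 for Nsdhl on the log2 scale. With the number block 4 of the 9 turned positive (Cyp51 0.063, Tm7sf2 0.049, Lbr 0.30 and Hsd17b7 0.27), as did Insig2 (0.37), Srebf1 (0.10) and, among the isoprenoid genes, Ggps1 (0.071). Msmo1 ran from 10.66 through 10.93 to 11.60 in WT and from 7.48 through 9.24 to 10.11 in DKO (-1.79 ± 0.23, limma adjusted p = 2.09e-06). Among the sensing genes, Scap and Insig2 differed by -2.02 and -2.08, and Srebf1 and Srebf2, the SREBP genes, by -0.69 and -0.74. Lysosomal Npc1 and Npc2, which pass cholesterol out of that compartment, differed by -1.84 and -1.77.

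Without the low-range arrays the DKO comparison rests on 1 array, replicate 2 of week 12, set against WT at week 12. Its spread comes from the other groups, and the lone array is assumed to vary like them. On that assumption 21 genes were lower, with a median of -1.50, where 13.8% of all genes were lower. Insig1 was 6.996 in that array against 10.38 and 10.38 in WT. Tmem97 was 6.02 against 9.70 and 9.12, and Lss was 6.03 against 8.74 and 9.002. Fdft1, the squalene synthase, went the other way, at 8.60 against 7.96 and 7.89. After quantile normalization 19 genes were lower, with a median of -1.13, and 18.7% of all genes were; the calls over all genes moved from 7792 higher and 5637 lower to 3519 lower of 6566. The median over all genes moved from 0.19 to 0.03.

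Against KO on BaP, DKO was lower for 20 of 26 genes, where 25.4% of all genes were called lower, with a median of -1.12. Msmo1 and Tmem97 were the 2 of 26 genes with every DKO array below every KO array, as were 1.75% of all genes. Msmo1 ran from 10.28 to 11.45 in KO and from 7.48 to 10.11 in DKO, and Tmem97 from 7.84 to 9.11 and from 4.96 to 7.23. With the number block the median was 0.04 and Tmem97 was the 1 gene called. Both sets share the DKO arrays with the WT comparison.

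At week 0, where 1 DKO array was normal-range and 1 low-range, 7 of 26 genes were lower in DKO than in WT, against 3.2% of all genes. They were Pmvk, Mvd, Fdps, Lss, Tm7sf2, Sc5d and Npc2. Pmvk was 7.40 and 8.83 in WT and 6.74 and 5.44 in DKO. Lss was 8.99 and 9.18 in WT and 7.16 and 6.38 in DKO. Npc2 was 9.19 and 9.59 in WT and 7.89 and 6.38 in DKO. For 24 of 26 genes the low-range DKO array, replicate 2, was the lower one, with the largest gap, 3.06, in Sqle.

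**Figure D3:**
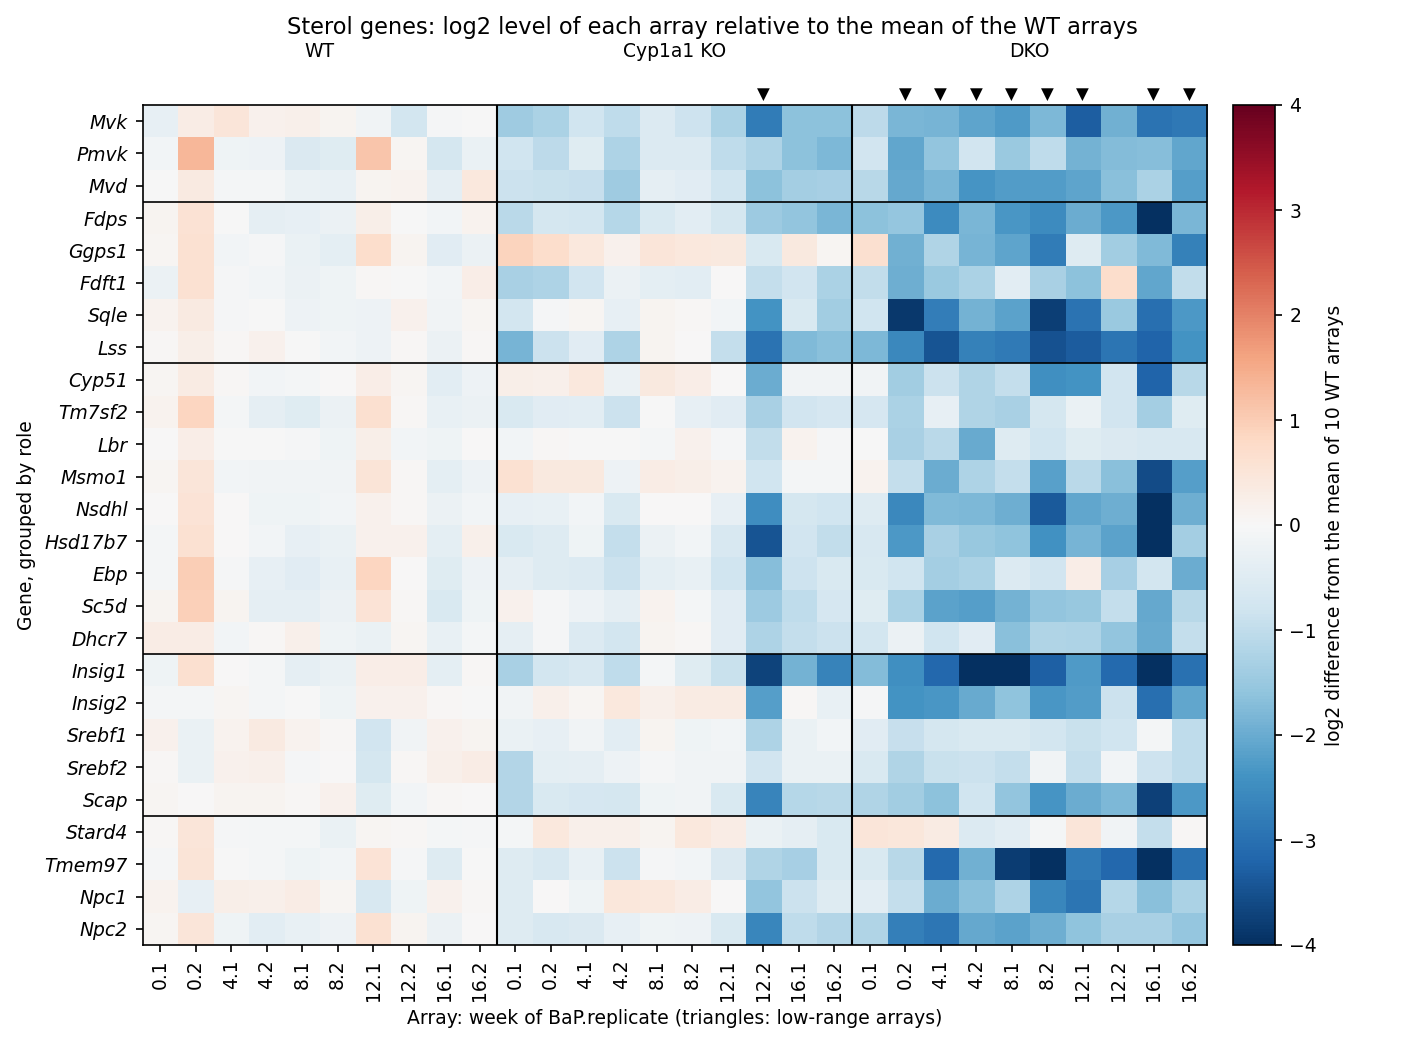
Rows are the 26 genes in order of role, columns the 30 arrays by genotype, week and replicate; colour is the log2 level minus the mean of the 10 WT arrays, with colours ending at 4, and triangles mark low-range arrays. Columns labelled DKO are blue in most rows, the KO week 12 replicate 2 column is lower than replicate 1 in all 26 rows, and the Stard4 row stays near white.

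Within genotypes, 1 gene was called as changing when the mean of weeks 4 to 16 was set against week 0. In DKO, weeks 4 to 16 against week 0, Tmem97 fell by 2.40 ± 0.33 on the log2 scale (limma adjusted p = 0.000595), the 1 call of 26 where 0.405% of all genes were lower. It was 8.55 and 8.06 at week 0, 6.06 and 7.23 at week 4, 5.38 and 4.96 at week 8, 6.32 and 6.02 at week 12, and 5.05 and 6.18 at week 16. Every later array was below both week 0 arrays, which held for 4 of 26 genes (Fdps, Msmo1, Tmem97 and Npc1) and 2.18% of all genes. The Tmem97 call held with the number block (-2.13, limma adjusted p = 0.00309), which rests on the KO week 12 and DKO week 0 pairs alone. Without low-range arrays DKO keeps 1 array at week 0 and 1 later, a gap of -2.53 whose spread would come from the other groups alone. The call was lost with array weights (-2.40 ± 0.65, limma adjusted p = 0.869) and with DKO fitted alone (-2.40 ± 0.45, limma adjusted p = 0.137), where the difference was the same and its SE larger, and within numbers 22 to 33 (-2.16, limma adjusted p = 0.499). Leaving out single arrays gave 1 to 4 calls, with 4 without week 0 replicate 2 (5.15% of all genes lower) or week 16 replicate 2 (1.99%), and 2 without either KO week 12 array, week 4 replicate 2 or week 8 replicate 1. The difference from its change in WT was -2.11 ± 0.46 (limma adjusted p = 0.171) and from its change in KO -2.36 ± 0.46 (limma adjusted p = 0.0828), so neither difference in change was called.

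Other sterol genes in DKO had lower values over weeks 4 to 16 than at week 0 that did not pass in that comparison. Msmo1 was 11.22 and 10.13 at week 0, 9.09 and 9.83 at week 4, 10.11 and 8.88 at week 8, 10.004 and 9.38 at week 12, and 7.48 and 8.86 at week 16 (-1.47 ± 0.37, limma adjusted p = 0.0535). Insig1 differed by -1.59 ± 0.57 (limma adjusted p = 0.176). The median over 26 genes was -0.74, against 0.04 over all genes, and 11 had an unadjusted p under 0.05. Without DKO week 0 replicate 1, the one normal-range array of that group, the median was -0.05.

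By week, the DKO calls against week 0 were few. At week 4 there were 0 of 26 (6 at an unadjusted p under 0.05; limma called 0.522% of all genes). At week 8 there was 1, Tmem97 (-3.13 ± 0.41, limma adjusted p = 0.000321), where 0.341% of all genes were lower. At week 12 Tmem97 was again the 1 call (-2.13 ± 0.41, limma adjusted p = 0.0148), where 0.0532% were lower. At week 16 there were 3, where 2% of all genes were lower: Tmem97 (-2.69), Msmo1 (-2.50) and Scap (-1.73). None of the 3 was called with array weights or with DKO fitted alone, where the differences were the same, the SE larger and the lowest limma adjusted p 0.634 and 0.290. Week 16 replicate 1 held the lowest value of all 30 arrays for 11 of 26 genes, Msmo1 and Scap among them. Leaving it out left 1 call at week 16 (0.378% of all genes lower), and leaving out replicate 2 gave 10 (5.61%). Without week 0 replicate 1 there was 1 call (0.596%), and without week 0 replicate 2 there were 7 (10.2%), so the count moved with that over all genes.

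In WT, weeks 4 to 16 against week 0 gave 0 of 26 calls by limma and 0% of all genes, with 2 genes at an unadjusted p under 0.05 and a median of -0.31. WT week 0 replicate 2 was above replicate 1 for 21 of 26 genes, by up to 1.43 in Pmvk. Without it the WT median was -0.09. In KO the same comparison gave 0 of 26 calls by limma and 0% of all genes, with 0 at an unadjusted p under 0.05 and a median of -0.17.

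KO at week 16 was also set against KO at week 8, the week of its highest values. This comparison and those of KO at week 16 with week 0 and with WT were added after the values were seen. Insig1 was 10.03 and 9.62 at week 8 and 8.21 and 7.42 at week 16. Lss was 9.06 and 8.96, then 7.21 and 7.29. All 26 differences were negative, with a median of -0.82 against 0.12 over all genes. Week 8 was picked for its high values of these same genes, so that choice favoured a negative sign. Neither the sign nor the median is therefore read as a late fall. Limma called 0 of 26 and 0% of all genes, with 10 of 26 at an unadjusted p under 0.05, a count not read as a result. Against week 0, KO week 16 also gave 0 calls by limma among 26 genes and 0% of all genes, with 1 at an unadjusted p under 0.05. KO against WT at week 16 gave 0 of 26 calls by limma, where 0.0639% of all genes were called, with 8 at an unadjusted p under 0.05 and a median of -0.71.

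The differences in change over weeks 4 to 16, DKO minus WT and DKO minus KO, were called for 0 of 26 genes each by limma, where 0.0373% and 0.0426% of all genes were called. Unadjusted p under 0.05 was met by 3 and 1 genes, and the medians were -0.35 and -0.42. Without the low-range arrays the change in DKO is that of 1 array against 1, so the 4 and 3 calls made there borrow their spread from other groups and are not read further.

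**Figure D4:**
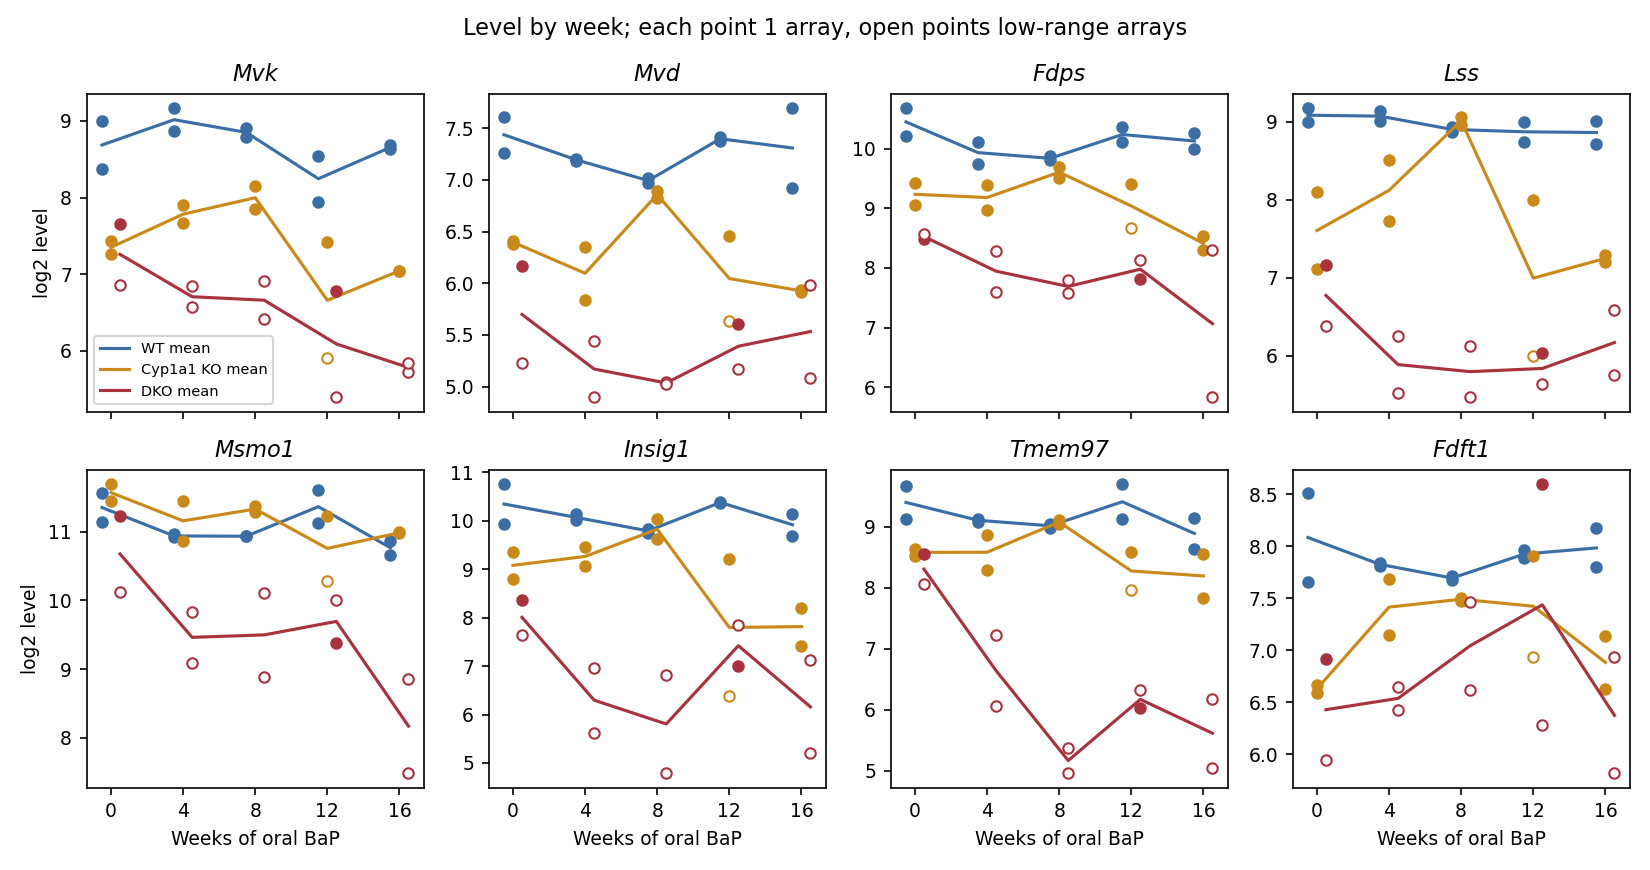
Log2 level of 8 genes against weeks of oral BaP; each point is 1 array, lines join group means, colours are genotypes, points are offset sideways by genotype, and open points are low-range arrays. Tmem97 in DKO drops from 8.55 and 8.06 at week 0 to 5.38 and 4.96 at week 8, and KO values of Lss and Insig1 meet WT at week 8 and lie below it at week 16.

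Neighbouring pathways were counted the same way, from lists of related genes. In KO against WT on BaP, 0 of 9 SREBP processing and sterol-degradation genes, 0 of 12 isoprenoid-branch genes, 0 of 11 sterol ester and transport genes and 0 of 14 SREBP1 fatty acid targets were called by limma; 1, 3, 4 and 3 of them had an unadjusted p under 0.05. Their medians were -0.25, -0.31, -0.09 and -0.28. Of 7 LXR and sterol-efflux genes, 2 were lower, where 1.39% of all genes were called lower. In DKO against WT on BaP, 8 of 9, 11 of 12, 8 of 11 and 11 of 14 of these genes were lower in that order, with 5 of 7 LXR genes, beside the 30% of all genes called lower. Fads2, a fatty acid desaturase, differed by -2.85 and Coq2, a ubiquinone synthesis enzyme, by -2.37.

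Several sets of cell-type markers also differed between DKO and WT on BaP. No marker value with the number block is given here. Sebocyte markers, all 10 measured, had a mean log2 level of 7.46 to 7.84 in WT on BaP, 6.74 to 7.68 in KO and 5.37 to 6.64 in DKO. Of these, 8 were lower and 2 higher in DKO than in WT, where 30% of all genes were lower and 41.5% higher. Plin2, a lipid-droplet protein, differed by -2.54. Cornified keratinocyte markers, all 10 measured, ran from 6.49 to 6.78 in WT and from 7.58 to 10.58 in DKO, and 9 were higher. The marker lists were chosen with earlier results of these data known, so these counts are not an independent test. Krt1 was higher by 5.44. Neutrophil markers ran from 4.15 to 4.58 in WT and from 5.099 to 7.11 in DKO, with 5 of 8 higher. Basal keratinocyte markers ran from 8.61 to 9.20 and from 6.77 to 8.44, with 5 of 6 lower. Of macrophage markers 1 of 6 was higher, of skeletal muscle markers 4 of 6 were higher, and of fat cell markers 1 of 5 was lower. The part of cell makeup in the sterol differences was not tested, and in whole tissue fewer cells of a type and less RNA per cell cannot be told apart.

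In KO on BaP the means of the sebocyte, cornified, neutrophil and basal markers stood closer to WT than in DKO. Of 10 sebocyte markers 2 were lower (median -0.34), where 1.39% of all genes were called lower. Of 10 cornified keratinocyte and 8 neutrophil markers 0 were called by limma, with 1 and 0 at an unadjusted p under 0.05. The mean of the cornified markers ran from 6.56 to 7.25 and of the neutrophil markers from 4.10 to 5.26. Of 6 basal keratinocyte markers 0 were called by limma, with 4 at an unadjusted p under 0.05 and a mean of 7.57 to 9.03. Their part in the 5 KO sterol calls was not tested.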

How the data were processed

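Each of 30 arrays measured gland RNA of 1 mouse, 2 mice in each of 15 groups. RNA was amplified with a whole-transcriptome kit and biotin-labelled, per the labels' protocols. The authors deposited a log2 intensity for every probe set, made with RMA (no version given), per the submitters' processing notes. The array distributions differed, and the sources used here do not say which arrays were normalized together. Of 21212 probe sets, 18786 had 1 symbol, 6 several and 2420 none in the platform table.

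A mean for each group was fitted in limma 3.58.1 (R 4.3.3) over all 18784 genes, with moderated variances (15 residual and 6.91 prior degrees of freedom), no filter, and Benjamini-Hochberg adjustment. Scripts were tested on simulated data. There were 14 comparisons, and 4 were added after values were seen. The number of arrays limits precision. Genes named were all measured members of the list and up to 2 per other list by smallest adjusted p in DKO weeks 4 to 16 against week 0. Members, lists and markers were chosen with earlier results of these data known. Alternatives covered normalization, filter, variance, array weights, replicate and number blocks, and arrays left out.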

Additional observations from a re-analysis of the deposited data

How the results depend on the processing

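The labels give the 15 groups replicate numbers 1 and 2. These did not pair the samples: over 105 pairs of groups, the deviations of equal-numbered arrays correlated at -0.55 to 0.67, with a median of -0.02. With the replicate block 3 sterol genes were called between KO and WT on BaP in place of 5.

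Of the counts and medians that changed, KO against WT on BaP had 1 call after quantile normalization, 12 with array weights, 11 with only the genotypes compared, and 14 within numbers 1 to 20 or without low-range arrays. DKO weeks 4 to 16 against week 0 had 2 calls with the low filter, 0 with array weights and 0 with only DKO fitted. It had 0 within numbers 22 to 33 (median -0.054) and 2 with the number block (median -0.0049). Without low-range arrays this comparison sets 1 DKO array against 1. There Fdft1 (1.68) and Srebf2 (0.50) were higher and the other sterol genes lower, Tmem97 by most (-2.53). DKO week 16 against week 0 had 6 after quantile normalization, 0 with array weights, 0 with only DKO fitted, 0 within numbers 22 to 33 (median -0.35), and a median of -0.25 with the number block. DKO against WT had 1 call and a median of -0.23 with the number block, and a median of -1.13 after quantile normalization. DKO against KO had 11 (median -0.56) after quantile normalization, 1 (0.037) with the number block, 0 (0.31) within numbers 22 to 33 and 13 without low-range arrays (7.2% of all genes lower). The differences in change had medians of 0.26 (DKO minus WT) and 0.10 (DKO minus KO) with the number block, and 4 and 3 calls without low-range arrays. Without low-range arrays every DKO arm is 1 array, and KO week 12 too, so those counts take their spread from other groups and assume that the lone arrays vary like them. Each count takes lower and higher calls together, and most stand without the share of all genes called. Counts over all genes moved between settings too, so these counts are not read as particular to the sterol genes. The causes were not tested.

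Leaving out 1 array at a time gave 1 to 4 calls for DKO weeks 4 to 16 (4 without week 0 replicate 2 or week 16 replicate 2; medians -1.04 to -0.054) and 1 to 10 for DKO week 16 (-1.14 to -0.35). It gave 2 to 11 for KO against WT. Each difference in change had 0 to 1 calls, with medians from -0.73 to 0.24 (DKO minus WT) and from -0.80 to 0.17 (DKO minus KO), both highest without DKO week 0 replicate 1. DKO against WT kept a count of 25, and DKO against KO had 19 to 21.

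Some called differences changed sign. For DKO minus WT with the number block these were Sqle 0.20, Cyp51 0.063, Tm7sf2 0.049, Lbr 0.30, Hsd17b7 0.27, Ggps1 0.071, Insig2 0.37 and Srebf1 0.10, and without low-range arrays Fdft1 0.67 and Srebf2 0.22. For DKO minus KO with the number block they were Sqle 0.38, Lbr 0.23, Nsdhl 0.11, Hsd17b7 0.84, Insig2 0.22, Srebf2 0.091 and Npc2 0.54, and without low-range arrays Srebf2 0.044. Within numbers 22 to 33 they were Mvk 0.19, Sqle 0.18, Cyp51 0.40, Lbr 0.44, Nsdhl 0.47, Hsd17b7 1.45, Sc5d 0.20, Insig1 1.03, Insig2 0.67, Srebf2 0.22, Scap 0.74 and Npc2 1.17, where 1 KO array stands for its group.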
